A study of Rattus norvegicus with 20 samples.

Results

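The genes described here act in pericellular proteolysis, the cutting of proteins around cells, and were followed across the kidneys of injured and control rats. They are the matrix metalloproteinases Mmp3, Mmp7, Mmp10 and Mmp14, their inhibitor Timp1, the plasminogen activators Plau and Plat, and the urokinase receptor Plaur. The 8 genes were chosen by name from the 34681 rows of the gene table, with earlier results of these data known. Mmp10 was included because it stood much higher in RM than in HS kidneys. The RM against HS values of all 8 genes are therefore a description with no test. For the same reason Mmp10 was tested only in RM-HS against Sham, which involves neither of those groups. RNA came from frozen kidney samples of Rattus norvegicus and was read by paired-end sequencing of stranded mRNA libraries. The labels divide the 20 of them into 3 of RM-HS, 6 of RM, 5 of HS and 6 of Sham. The study is on kidney damage that follows trauma. Its labels do not spell out RM and HS, which are taken here to stand for rhabdomyolysis (the breakdown of skeletal muscle) and haemorrhagic shock, so that RM-HS received both injuries and Sham neither. No strain, sex, age, time after injury, genotype or drug is given in the labels, and no agent or allele is named as common to all groups.

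Matrix metalloproteinases are zinc enzymes that cut collagens, laminins, proteoglycans and cell surface proteins. Most are secreted as inactive proenzymes and are opened by other proteases, among them plasmin. Plasmin is made from plasminogen by urokinase (Plau), which works bound to its receptor Plaur on the cell surface, and by tissue plasminogen activator (Plat). Tissue inhibitors of metalloproteinases such as Timp1 bind the active enzymes and block them. In the kidney urokinase is made by tubular epithelium, and Mmp7 and Timp1 are known as genes that injured tubules and interstitium express.

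The promoters of the genes that were near the limit of detection in Sham kidneys are shown first, with that of Plaur, because the 4 of them share a short run of letters. RefSeq promoter sequences of the GRCr8 build, reaching 250 bases before to 50 bases after the start of the gene, were matched by symbol for 6 of the 8 genes (Mmp3, Mmp7, Mmp10, Timp1, Plau and Plaur). The letters TGANTCA, which read the same on both strands and are the core of the element bound by AP-1 transcription factors, occurred in 4 of these 6 windows and in 7.33% of 33469 rat promoters of the same length. The matches lay 71 bases before the start of Mmp3, 61 before that of Mmp10, 80 before that of Mmp7 and 83 before that of Plaur. The windows of Timp1 and Plau held no such letters. The same windows were also searched for the letters of an ETS element and of a core promoter element. The ETS letters occurred in the windows of Mmp3, Mmp7, Timp1 and Plaur, and in 34.5% of the 33469 promoters. Those of the core promoter element occurred in the windows of Mmp3, Mmp7 and Mmp10, and in 14.2% of these promoters. The AP-1 letters were therefore not the only ones that several of these windows shared. Each stretch below runs 5′ to 3′ on the plus strand, from 120 bases before the start to 20 after it, with TGANTCA in capitals. Mmp10 lies at chr8:12974587-12974726, Mmp3 at chr8:12925161-12925300, Mmp7 at chr8:13132923-13133062 and Plaur at chr1:89181243-89181382, all on GRCr8.
Mmp10: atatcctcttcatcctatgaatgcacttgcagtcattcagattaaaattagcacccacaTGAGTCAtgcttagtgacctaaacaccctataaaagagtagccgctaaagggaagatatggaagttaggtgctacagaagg
Mmp3: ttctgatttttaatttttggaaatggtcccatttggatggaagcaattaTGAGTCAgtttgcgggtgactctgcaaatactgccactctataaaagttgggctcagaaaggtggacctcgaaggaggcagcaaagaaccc
Mmp7: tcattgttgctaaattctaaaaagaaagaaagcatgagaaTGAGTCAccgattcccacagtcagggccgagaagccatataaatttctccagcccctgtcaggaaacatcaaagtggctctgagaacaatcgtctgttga
Plaur: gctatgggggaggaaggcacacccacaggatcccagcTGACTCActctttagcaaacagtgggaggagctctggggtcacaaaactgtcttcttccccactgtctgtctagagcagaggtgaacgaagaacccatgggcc
The 3 metalloproteinase promoters carry the same form of these letters, TGAGTCA, and Plaur carries TGACTCA, which is its reverse complement. A match is a description of the letters and not a measured binding site.

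The libraries held 45047179 to 109940948 reads in the table, of which 42.2% to 54.7% lay on 14 mitochondrial rows, and 23.3 to 51.9 M lay elsewhere. Values below are DESeq2-normalized read counts, differences are on the log2(value + 1) scale with their SE, and a difference passed where limma, with Benjamini-Hochberg adjustment over 15954 rows, gave a p below 0.05. The scale understates the change of genes with low values. Whether the libraries of a group are separate animals is not stated, and p-values then cover only the spread between samples, part of which may be technical. In bulk kidney RNA, a change in the number of cells of a type and a change in RNA per cell cannot be told apart. Library names begin with R or S, with no meaning given: all RM-HS and Sham libraries, 3 of 5 HS libraries and 1 of 6 RM libraries (RM 1) are named R. The Sham libraries differed among themselves, as seen in Slc5a2, a proximal tubule glucose transporter, at 6791 and 7863 in Sham 1 and 6 and between 43.1 and 396 in Sham 2 to 5. Every library of the injured groups stood at 9389 or more for this gene. Kidney markers were present in every library, with a summed level of 7 proximal tubule genes from 155523 to 485027. RM 1 also stood apart from the other RM libraries, with a summed level of 6 collecting duct markers of 37142 against 11445 to 15901 in RM 2 to 6.

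Mmp10 (stromelysin-2), which cuts proteoglycans and laminin and activates other metalloproteinases, had its highest values in RM kidneys. Its values were 17.4, 24.4 and 11.4 in RM-HS kidneys and 8.47, 167, 326, 112, 219 and 119 in RM kidneys. They were 3.32, 0, 7.22, 0 and 0 in HS kidneys, and 3.80, 0, 1.91, 1.18, 0 and 1.71 in Sham kidneys. RM 2 to 6, all named S, were far above every other library, RM 1 lay below all 3 RM-HS libraries, and the HS and Sham ranges overlapped. RM-HS kidneys lay above Sham kidneys without overlap, by 3.11 ± 0.92 (limma adjusted p = 0.01, and 0.012 with no filter on low values). The call held with only RM-HS and Sham libraries in the fit, and was lost with pseudocount 8 and against Sham 1 and 6 alone. The mean was 159 ± 108 in RM kidneys (SD, n = 6) against 2.11 ± 3.20 in HS kidneys (SD, n = 5), a fitted difference of 5.72, which restates how the gene was chosen. In reads, Mmp10 had 45 over the RM-HS libraries, 903 over RM, 12 over HS and 9 over Sham. The 2 HS libraries named S, HS 4 and HS 5, had 0 reads of Mmp10. Within RM, the name letter and the level of Mmp10 cannot be told apart. Among libraries named R alone, the fitted difference of RM from HS was 1.53, with RM 1 as the only RM library.

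Mmp3 (stromelysin-1), a close relative of Mmp10 with overlapping substrates, was also highest in RM kidneys. It stood at 86.0, 135 and 17.1 in RM-HS kidneys and at 9.53, 195, 318, 247, 275 and 341 in RM kidneys. HS kidneys had 0.831, 7.94, 58.6, 8.81 and 14.4, and Sham kidneys had 3.04, 8.60, 0, 2.35, 5.38 and 6.86. Every RM and RM-HS library lay above every Sham library, whereas the HS and Sham ranges overlapped and HS 3 was the highest HS library. Mmp3 was higher in RM than in Sham kidneys by 5.19 ± 0.87 (36.5-fold, limma adjusted p = 5.3e-05, and 7.6e-05 with no filter on low values) and in RM-HS than in Sham kidneys by 3.79 ± 1.06 (adjusted p = 0.0073). Its HS to Sham difference of 1.32 ± 0.91 did not pass (limma adjusted p = 0.25, against 0.026 with DESeq2 on recovered reads). RM 1 was again the low RM library, and with it as the only RM library, among libraries named R, the RM to Sham difference was 1.28 (limma adjusted p = 0.7). Without RM 1 the difference was 5.97 (limma adjusted p = 1.5e-06). Mmp3 and Mmp10 are paralogs in the same cluster on chromosome 8, and how the authors' counting treated reads common to both is not given, so their separate levels carry that uncertainty.

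**Figure D1:**
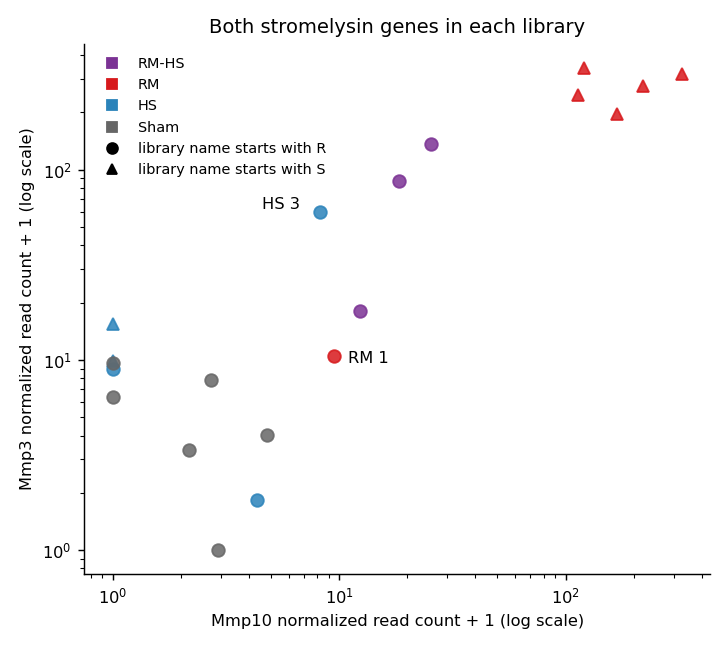
Mmp3 and Mmp10 in each of the 20 kidney libraries, on log axes of normalized count + 1, coloured by group, with circles for library names beginning with R and triangles for S. RM 2 to 6 lie at the upper right with Mmp3 at 195 or more and Mmp10 at 112 or more, RM 1 lies near the RM-HS libraries, and HS 3, with Mmp3 at 58.6 and Mmp10 at 7.22, is the highest HS library on both axes.

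Mmp7 (matrilysin), a small epithelial metalloproteinase that sheds cell surface proteins, had the reverse order of RM and HS, with overlapping ranges. The medians were 6.53 in RM and 8.81 in HS kidneys. Its values were 13.1, 12.8 and 8.55 in RM-HS kidneys, 5.29, 15.6, 1.01, 1.86, 7.77 and 10.1 in RM kidneys, 4.15, 32.9, 27.1, 8.81 and 6.40 in HS kidneys, and 1.52, 0.860, 4.77, 7.06, 0 and 0 in Sham kidneys. HS 2 and HS 3 were the highest libraries, and HS 1, HS 4 and HS 5 lay within the RM range. RM 1, RM 3, RM 4, HS 1 and HS 5 lay within the Sham range, and RM-HS kidneys lay above all Sham kidneys. Mmp7 passed in RM-HS against Sham (2.32 ± 0.82, limma adjusted p = 0.028) and in HS against Sham (2.39 ± 0.70, adjusted p = 0.0087) but not in RM against Sham (1.35 ± 0.67, adjusted p = 0.098). RM minus HS was -1.05, given with no test. These values rest on few reads, 29 over the RM-HS libraries, 38 over RM, 77 over HS and 14 over Sham. Mmp7 reached 10 normalized counts in 2 RM-HS, 2 RM, 2 HS and 0 Sham libraries, so it passed the filter only through injured kidneys. Both calls held with no filter on low values. Leaving out any 1 of the RM-HS libraries ended the RM-HS call (limma adjusted p = 0.088, 0.077 and 0.051 without RM-HS 1, 2 and 3), as did leaving out Sham 5 or Sham 6 (0.054 and 0.052), and the RM difference passed without RM 3 (0.046) or Sham 4 (0.044).

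Mmp14, the membrane-anchored collagenase that also activates pro-Mmp2, differed from Sham by 0.52 or less on the log2 scale. It stood at 1270, 1928 and 1150 in RM-HS kidneys and at 1534, 1092, 1658, 1602, 934 and 1702 in RM kidneys. HS kidneys had 1053, 1016, 1485, 1166 and 1073, and Sham kidneys had 935, 780, 1193, 1185, 1000 and 884. All 3 injured groups overlapped the Sham range, which reached 1193, and RM 2 and RM 5 lay within it. The difference from Sham was 0.52 ± 0.20 in RM-HS (limma adjusted p = 0.042) and 0.49 ± 0.16 in RM kidneys (adjusted p = 0.016), and that of 0.22 ± 0.17 in HS kidneys did not pass (adjusted p = 0.31). The RM-HS call was lost without RM-HS 1, RM-HS 2, Sham 1, Sham 2, Sham 5 or Sham 6 (limma adjusted p from 0.055 to 0.29). Both calls were lost against Sham 1 and 6 alone, at 0.63 in RM-HS (0.078) and 0.61 in RM (0.054), and under upper quartile scaling, at 0.38 (0.13) and 0.35 (0.076). The RM call was also lost in the fit that adjusts for the name letter (0.58, 0.072) and in libraries named R only (0.64, 0.24).

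Timp1, the secreted inhibitor that binds most metalloproteinases and is a common marker of tissue injury, rose in every injured group. It stood at 14614, 13089 and 8718 in RM-HS kidneys, and at 4690, 12247, 16998, 8205, 4303 and 11022 in RM kidneys. HS kidneys had 3692, 7075, 16636, 8110 and 3602, and Sham kidneys had 1058, 3703, 2137, 1484, 1286 and 499. Sham 2 was the highest Sham library, above HS 1 and HS 5 and below every RM and RM-HS library. The differences from Sham were 3.07 ± 0.54 in RM-HS (8.38-fold, limma adjusted p = 0.00015), 2.59 ± 0.44 in RM (adjusted p = 6.1e-05) and 2.23 ± 0.46 in HS kidneys (adjusted p = 0.00058). Among libraries named R alone, with RM 1 as the only RM library, the RM difference was 1.73 (limma adjusted p = 0.26).

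Plaur, the receptor that holds urokinase on the cell surface and a marker of activated leukocytes and injured epithelium, was higher in all 3 injured groups. Its values were 1021, 1177 and 584 in RM-HS kidneys, 645, 935, 1700, 1788, 433 and 2179 in RM kidneys, 182, 387, 531, 433 and 264 in HS kidneys, and 80.5, 229, 112, 165, 165 and 110 in Sham kidneys. All RM-HS libraries lay above all HS libraries, RM kidneys spanned 433 to 2179, and only HS 1 fell within the Sham range. Differences from Sham were 2.71 ± 0.45 in RM-HS (limma adjusted p = 9e-05), 3.01 ± 0.37 in RM (adjusted p = 1.4e-06) and 1.31 ± 0.38 in HS kidneys (adjusted p = 0.0086). RM minus HS was 1.70, given with no test.

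Plat, tissue plasminogen activator, made by endothelium and also by kidney epithelium, rose in every injured group. It stood at 10043, 7645 and 9268 in RM-HS kidneys, at 9335, 7150, 10483, 8610, 6156 and 8042 in RM kidneys, at 5002, 5577, 8323, 6377 and 5477 in HS kidneys, and at 2876, 3014, 3091, 2655, 2219 and 3469 in Sham kidneys. Every injured library lay above every Sham library, with HS 1 the lowest of them. Differences from Sham were 1.64 ± 0.17 in RM-HS (3.12-fold, limma adjusted p = 5.9e-07), 1.51 ± 0.14 in RM (adjusted p = 4.3e-08) and 1.08 ± 0.14 in HS kidneys (adjusted p = 8.9e-06). These calls held among libraries named R alone and against Sham 1 and 6 alone.

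Plau, urokinase, was higher than in Sham kidneys in the groups that included HS, and did not pass in RM. It stood at 48136, 54563 and 37010 in RM-HS kidneys and at 24605, 22718, 25208, 23558, 17492 and 32857 in RM kidneys. HS kidneys had 24974, 27712, 45141, 43518 and 26702, and Sham kidneys had 22766, 19632, 24486, 23235, 22356 and 23801. All RM-HS libraries lay above all RM and all Sham libraries, all HS libraries lay above all Sham libraries, and the RM values lay on both sides of the Sham range. The differences from Sham were 1.02 ± 0.19 in RM-HS (limma adjusted p = 0.0003) and 0.52 ± 0.16 in HS kidneys (adjusted p = 0.013), and 0.08 ± 0.16 in RM kidneys did not pass (adjusted p = 0.68). Under upper quartile scaling, and without RM 6, the RM difference turned to -0.06 and -0.01. The HS call was lost without HS 4 (0.42, limma adjusted p = 0.051), among libraries named R alone (0.48, 0.054) and against Sham 1 and 6 alone (0.48, 0.16).

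**Figure D2:**
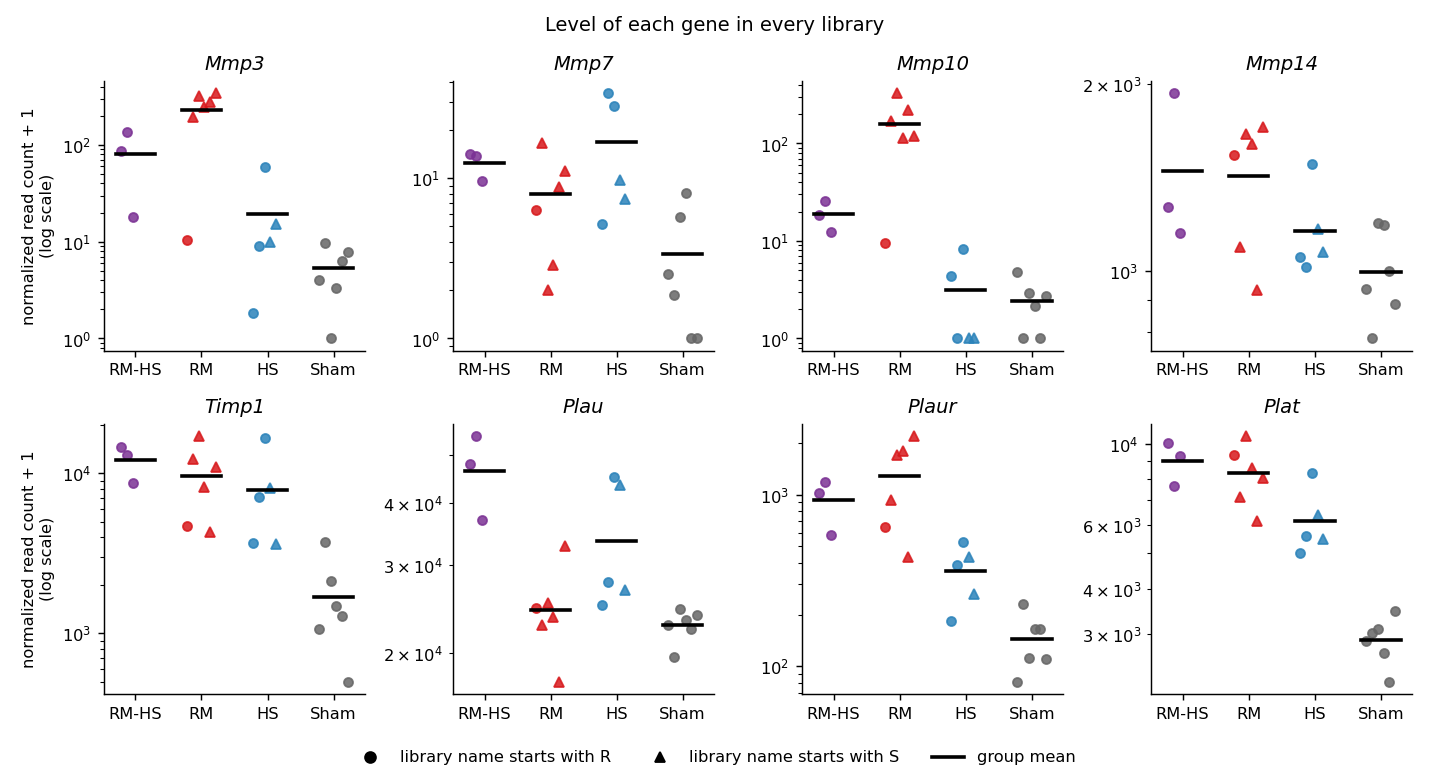
Normalized counts of the 8 genes in each library, 1 panel per gene, on log axes of value + 1, with groups in the order RM-HS, RM, HS and Sham, circles for names beginning with R, triangles for S, and a bar at the group mean. Plat separates every injured library from Sham, Plau is raised in RM-HS and HS but not in RM, and Mmp10 and Mmp3 are high in RM 2 to 6 with RM 1 far below them.

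Against Sham, the injured groups raised these genes to different extents, and the 3 comparisons share the Sham libraries. In RM-HS kidneys 8 of 8 tested genes were higher and 0 lower, where 21.3% of all rows tested were higher and 21.0% lower. RM kidneys had 5 of 7 tested genes higher (Mmp3, Mmp14, Timp1, Plaur and Plat) and 0 lower, where 26.2% of all rows were higher and 26.8% lower. In HS kidneys 5 of 7 were higher (Mmp7, Timp1, Plau, Plaur and Plat) and 0 lower, where 23.3% of all rows were higher and 23.2% lower. The median difference of the 8 genes was 2.52 in RM-HS, 2.05 in RM and 1.19 in HS kidneys, beside -0.03, -0.04 and -0.03 over all rows. Mmp3, Mmp7 and Mmp10 reached 10 normalized counts in 0 Sham libraries, so they passed the filter on low values only through injured kidneys. Their calls against Sham held with no filter. The other 5 genes stood above 10 in all 20 libraries. All 8 genes were also chosen with earlier results of these data known. The counts and medians are therefore a description, and no test of the 8 genes as a set. Against Sham 1 and 6 alone, 5 of the 8 genes passed in RM-HS kidneys, and Mmp3 (3.41, limma adjusted p = 0.079), Mmp10 (2.32, 0.17) and Mmp14 did not.

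**Figure D3:**
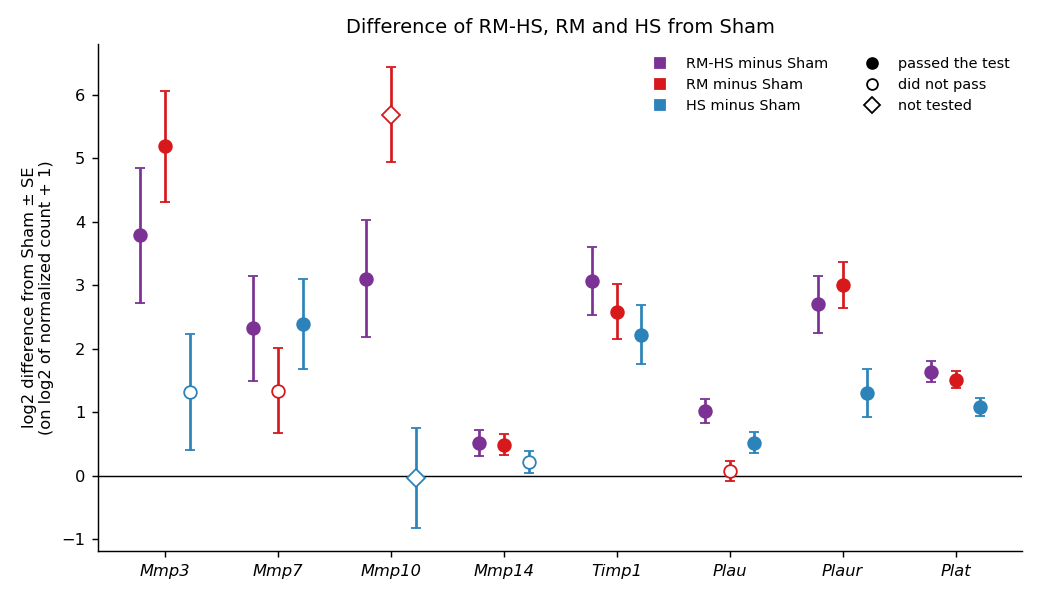
Difference from Sham on the log2(value + 1) scale, with its SE, for each gene in RM-HS, RM and HS kidneys. Filled circles passed, open circles did not, and diamonds were not tested; Mmp10 and Mmp3 are farthest from 0 in RM, at 5.69 and 5.19, and Plau in RM lies at 0.08.

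Kidneys with both injuries were set against RM kidneys to ask what HS adds to RM. Of 7 genes tested, 1 was higher in RM-HS than in RM kidneys and 0 lower, where 0.395% of all rows were higher and 0.689% lower. That gene was Plau, at 46570 ± 8881 in RM-HS kidneys (SD, n = 3) against 24406 ± 4969 in RM kidneys (SD, n = 6), a difference of 0.94 ± 0.19 (limma adjusted p = 0.029). Plat differed by 0.13 ± 0.17 (adjusted p = 0.76), Mmp14 by 0.03 ± 0.20 (0.97), Plaur by -0.30 ± 0.45 (0.8) and Timp1 by 0.48 ± 0.54 (0.71). Mmp3 was lower by 1.40 on the log2 scale with an SE of 1.06 and did not pass (adjusted p = 0.55). Mmp10 averaged 17.8 ± 6.53 in RM-HS kidneys (SD, n = 3) and 159 ± 108 in RM kidneys (SD, n = 6), a difference of -2.58, given with no test. The Plau call was lost without RM-HS 1, RM-HS 2, RM 3 or RM 5 (0.81 to 0.95, limma adjusted p from 0.051 to 0.098), with only RM-HS and RM in the fit (0.94, 0.067) and with the name letter as a covariate (0.98, 0.3). For Mmp3 the name letter as a covariate gave 0.35, and libraries named R alone gave 2.51, against RM 1 only, so the direction was not settled by these libraries.

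Against HS kidneys, the urokinase receptor and tissue plasminogen activator were higher in RM-HS kidneys. Of 7 tested genes 2 passed, both higher, where 20.6% of all rows passed in either direction (1599 of 3287 higher). Plaur averaged 927 ± 307 in RM-HS kidneys (SD, n = 3) against 359 ± 138 in HS kidneys (SD, n = 5), a difference of 1.40 ± 0.46 (limma adjusted p = 0.037). Plat averaged 8985 ± 1224 in RM-HS kidneys (SD, n = 3) against 6151 ± 1311 in HS kidneys (SD, n = 5), a difference of 0.56 ± 0.17 (adjusted p = 0.027). Mmp3 differed by 2.47 ± 1.10 (adjusted p = 0.12), Timp1 by 0.84 ± 0.55 (0.3), Plau by 0.50 ± 0.20 (0.078), Mmp14 by 0.30 ± 0.21 (0.33) and Mmp7 by -0.07 ± 0.85 (0.97). Mmp10 lay above every HS library in all 3 RM-HS kidneys, with a difference of 3.14 given without a test. The number of genes past the threshold fell to 0 without RM-HS 1, HS 1, HS 2 or HS 5, to 1 without RM-HS 2 or RM-HS 3, and rose to 4 without HS 3 and to 3 without RM 1 or HS 4.

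In the main fit the combined injury raised Plat and Plaur by less than the sum of the single injuries on the log2 scale. The Plaur call was lost in 15 of 30 alternative fits. The departure from additivity, computed as RM-HS plus Sham less the sum of RM and HS, was -0.95 ± 0.22 for Plat (limma adjusted p = 0.003) and -1.61 ± 0.59 for Plaur (adjusted p = 0.043). These were the 2 of 7 tested genes that passed, both below 0, where 16.8% of all rows passed below 0 and 14.9% above. With 5054 of all 15954 rows passing in either direction, the count does not set these genes apart. Timp1, at -1.75 ± 0.71 (adjusted p = 0.065), and Mmp3, at -2.72 ± 1.40 (adjusted p = 0.15), did not pass, and neither did Plau, at 0.42 ± 0.25 (adjusted p = 0.22). The Plaur call was lost without RM-HS 1, RM-HS 3, RM 3, RM 4, RM 6, HS 2, HS 3, HS 4, Sham 1, Sham 3 or Sham 6 (limma adjusted p from 0.058 to 0.14). It was also lost with no filter, with upper quartile scaling and with the name letter as covariate. Timp1 passed without RM 1, RM 5, HS 1, HS 5 or Sham 2 (-1.92 to -2.03, adjusted p from 0.026 to 0.044), and Mmp3 passed without RM 1 (-3.50, adjusted p = 0.022). Among libraries named R alone, where RM 1 is the only RM library, the Plat value was -1.17 and did not pass (limma adjusted p = 0.19).

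Some libraries stood at the edge of their group in most of the 8 genes. HS 3 was the highest HS library in 7 of the 8 genes, the exception being Mmp7, and RM-HS 3 was the lowest RM-HS library in 7 of 8, the exception being Plat. The name of HS 3 alone ends in a letter, L, with no meaning given. RM 5 was the lowest RM library for Mmp14, Timp1, Plau, Plaur and Plat, yet stood at 219 for Mmp10 and 275 for Mmp3. RM 1 was the lowest for those last genes only. The low stromelysins of RM 1 and the low values of the other genes in RM 5 thus lay in different libraries.

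Mmp3, Mmp10 and Mmp7 lie among 9 metalloproteinase rows within 378.2 kb of chromosome 8 on the rn6 build, from 5522739 to 5900963, of which 7 were tested. In the order of the coordinates they are Mmp13, Mmp12, Mmp3, Mmp1, Mmp10, Mmp8, Mmp27, Mmp20 and Mmp7. Mmp3 occupies 5676608 to 5698579, Mmp10 5734337 to 5742243 and Mmp7 5893253 to 5900963. The other 5 genes lie elsewhere on rn6: Mmp14 on chromosome 15 from 33074410 to 33083666, Plau on the same chromosome from 3644298 to 3650795, Timp1 on X from 1364772 to 1369397, Plaur on 1 from 81328157 to 81347368 and Plat on 16 from 74098266 to 74122858. Mmp8, the neutrophil collagenase and the next row after Mmp10, rose in RM-HS (2.34 ± 0.61, limma adjusted p = 0.0045) and in RM kidneys (3.15 ± 0.50, adjusted p = 2.9e-05) against Sham, with means of 210 ± 80.2 in RM-HS (SD, n = 3), 406 ± 241 in RM (SD, n = 6) and 50.6 ± 37.1 in Sham kidneys (SD, n = 6). Mmp13, collagenase-3, at the other end of the cluster, rose in RM-HS kidneys (3.44 ± 1.10, limma adjusted p = 0.016) with 10.9 to 27.9 in RM-HS against 0 to 8.60 in Sham kidneys. It also rose in RM kidneys (3.29 ± 0.90, adjusted p = 0.0044), which had 7.60 to 42.5. No Sham library reached 10 normalized counts of Mmp13, so it passed the filter on low values only through injured kidneys. It rests on few reads, 46 over the RM-HS libraries, 110 over RM, 68 over HS and 12 over Sham. The RM-HS call was lost without RM-HS 2 (3.11, adjusted p = 0.065), against Sham 1 and 6 alone (3.53, 0.073), and with edgeR or DESeq2 on recovered reads (0.062 in both). Within this cluster Mmp10 was 0 to 7.22 in HS kidneys while Mmp7 was 4.15 to 32.9.

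**Figure D4:**
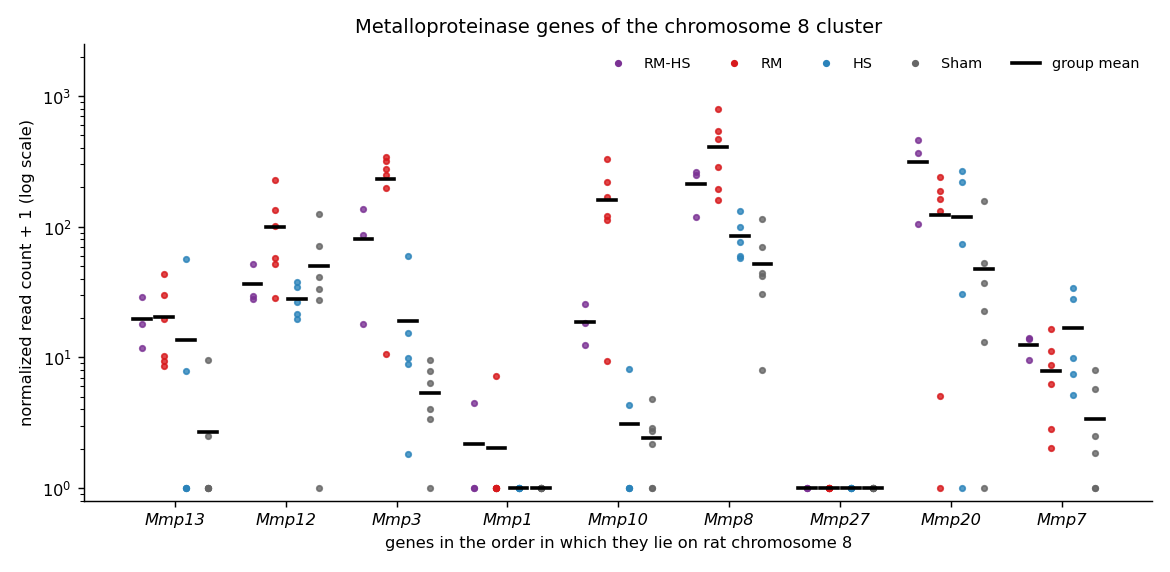
Normalized read count + 1, on a log axis, of the 9 metalloproteinase rows of the chromosome 8 cluster in their order along the chromosome, with a point per library, groups in the order RM-HS, RM, HS and Sham, and a bar at the group mean. Mmp3 and Mmp10 reach 341 and 326 in RM kidneys, and Mmp7 reaches 32.9 in HS kidneys.

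The counts of other genes of these pathways are read beside the shares of all rows, which were 21.3% higher and 21.0% lower in RM-HS, 26.2% and 26.8% in RM, and 23.3% and 23.2% in HS kidneys. Of 14 other metalloproteinases tested, 3 were higher and 0 lower in RM-HS, 3 higher and 6 lower in RM, and 1 higher and 3 lower in HS kidneys against Sham, with medians of -0.25, -0.42 and -0.09. Mmp9, the gelatinase of neutrophils and macrophages, passed in each, at 2.23 ± 0.38 in RM-HS (limma adjusted p = 0.00012), 1.69 ± 0.31 in RM (adjusted p = 0.00013) and 1.22 ± 0.32 in HS kidneys (adjusted p = 0.0042). Mmp11 (stromelysin-3), which is not in the chromosome 8 cluster and is known from stromal cells, was lower in RM kidneys (-1.12 ± 0.28, adjusted p = 0.0022). Mmp17 was lower in RM (-0.68 ± 0.22, limma adjusted p = 0.014) and in HS kidneys (-0.94 ± 0.23, adjusted p = 0.0026), and stood at -0.65 ± 0.27 in RM-HS kidneys (adjusted p = 0.06). Mmp23 was lower in RM (-0.66 ± 0.21, adjusted p = 0.015) and in HS kidneys (-0.82 ± 0.23, adjusted p = 0.0053), and stood at -0.38 ± 0.26 in RM-HS kidneys (adjusted p = 0.26). Of 12 ADAM and ADAMTS genes tested, 5 were higher and 2 lower in RM-HS, 7 and 2 in RM, and 7 and 2 in HS kidneys. Adamts1, which cuts versican and aggrecan, averaged 10742 ± 3315 in RM-HS (SD, n = 3), 14270 ± 5798 in RM (SD, n = 6), 5292 ± 2036 in HS (SD, n = 5) and 754 ± 74.6 in Sham kidneys (SD, n = 6). Its differences from Sham were 3.79 ± 0.31, 4.13 ± 0.25 and 2.73 ± 0.26 for RM-HS, RM and HS.

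Among 5 other inhibitors of metalloproteinases, Timp3 was higher and Timp2 lower than in Sham kidneys in each injured group. Timp3, which binds to the matrix and also blocks ADAM enzymes, differed by 1.37 ± 0.20 in RM-HS, 0.76 ± 0.16 in RM and 0.57 ± 0.17 in HS kidneys (limma adjusted p = 2.2e-05, 0.00055 and 0.0089). Timp2, which takes part in the activation of pro-Mmp2 by Mmp14, differed by -0.49 ± 0.14, -0.47 ± 0.11 and -0.76 ± 0.12 (adjusted p = 0.0079, 0.0018 and 4.7e-05). Reck, a membrane-anchored inhibitor, was lower in HS kidneys (-0.53 ± 0.21, adjusted p = 0.043), a call lost without HS 1, HS 3, HS 4, HS 5, RM 4, Sham 1, Sham 2, Sham 3 or Sham 6 (adjusted p from 0.05 to 0.11). Against Sham 1 and 6 alone the Timp3 calls in RM (0.40, limma adjusted p = 0.1) and HS (0.21, 0.43) and the Timp2 calls in RM-HS (-0.38, 0.12) and RM (-0.36, 0.089) were lost. Of the 4 activators of proenzymes listed, Pcsk5 was higher and Pcsk6 lower in every injured group. Pcsk5, a proprotein convertase, differed by 1.59 ± 0.19 in RM-HS, 1.60 ± 0.16 in RM and 1.16 ± 0.16 in HS kidneys, and its relative Pcsk6 by -3.34 ± 0.64, -2.97 ± 0.52 and -2.81 ± 0.55. Furin, which opens pro-Mmp14, was higher in RM-HS (0.32 ± 0.10, adjusted p = 0.019) and HS kidneys (0.58 ± 0.09), and the RM-HS call was lost without RM-HS 1 (0.25, 0.12) and against Sham 1 and 6 alone (0.10, 0.51).

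In the rest of the plasminogen system, 13 genes were tested, of which 5 were higher and 2 lower in RM-HS, 5 and 3 in RM, and 4 and 6 in HS kidneys. Itgb1, an integrin subunit, was higher and Plgrkt, a plasminogen receptor, lower in RM-HS (0.60 ± 0.10 and -0.55 ± 0.16), RM (0.64 ± 0.08 and -0.68 ± 0.13) and HS kidneys (0.62 ± 0.09 and -0.74 ± 0.14). Serpine2 (protease nexin-1), which inhibits urokinase, was lower in RM (-0.84 ± 0.25, limma adjusted p = 0.0079) and HS kidneys (-1.44 ± 0.26, adjusted p = 0.00017), and stood at -0.74 ± 0.30 in RM-HS kidneys (adjusted p = 0.057). S100a10, part of a plasminogen receptor with annexin A2, was higher in RM-HS (1.43 ± 0.28, adjusted p = 0.00042), RM (0.94 ± 0.23, adjusted p = 0.0018) and HS kidneys (1.23 ± 0.24, adjusted p = 0.00032).

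Genes of coagulation at the cell surface were higher or did not pass: 4 of 8 were higher in RM-HS, 5 in RM and 4 in HS kidneys, and 0 were lower. F3, tissue factor, averaged 18757 ± 6571 in RM-HS (SD, n = 3), 13838 ± 2920 in RM (SD, n = 6), 4633 ± 697 in HS (SD, n = 5) and 1455 ± 1023 in Sham kidneys (SD, n = 6), differences of 3.90 ± 0.37, 3.49 ± 0.30 and 1.92 ± 0.32. Tfpi2, a serine protease inhibitor that blocks plasmin, differed by 2.90 ± 0.47 in RM-HS and 3.94 ± 0.38 in RM kidneys. Of 10 pericellular serine proteases and partners, 2 were higher and 2 lower in RM-HS, 3 and 4 in RM, and 2 and 3 in HS kidneys. Hpn, hepsin of the proximal tubule, was lower (-0.79 ± 0.16, -1.17 ± 0.13 and -1.27 ± 0.14 in RM-HS, RM and HS), and Met, the receptor for hepatocyte growth factor, was higher (0.89 ± 0.14, 0.62 ± 0.11 and 1.29 ± 0.12). Among 10 matrix and adhesion genes, 4 were higher and 4 lower in RM-HS, 4 and 4 in RM, and 2 and 3 in HS kidneys. Cdh1, E-cadherin, was higher in all 3 (1.53 ± 0.21, 1.11 ± 0.17 and 0.77 ± 0.18), and Col1a2, a collagen I chain, was lower (-1.55 ± 0.30, -1.21 ± 0.25 and -0.99 ± 0.26). Against Sham 1 and 6 alone the Col1a2 calls in RM (-0.93, limma adjusted p = 0.061) and HS (-0.71, 0.17) were lost. With RM 1 as the only RM library, among libraries named R, the RM calls of Mmp8, Mmp9, Mmp11, Timp2, Timp3, Pcsk6, Plgrkt, Itgb1, Hpn, Met, Cdh1 and Col1a2 were lost.

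**Figure D5:**
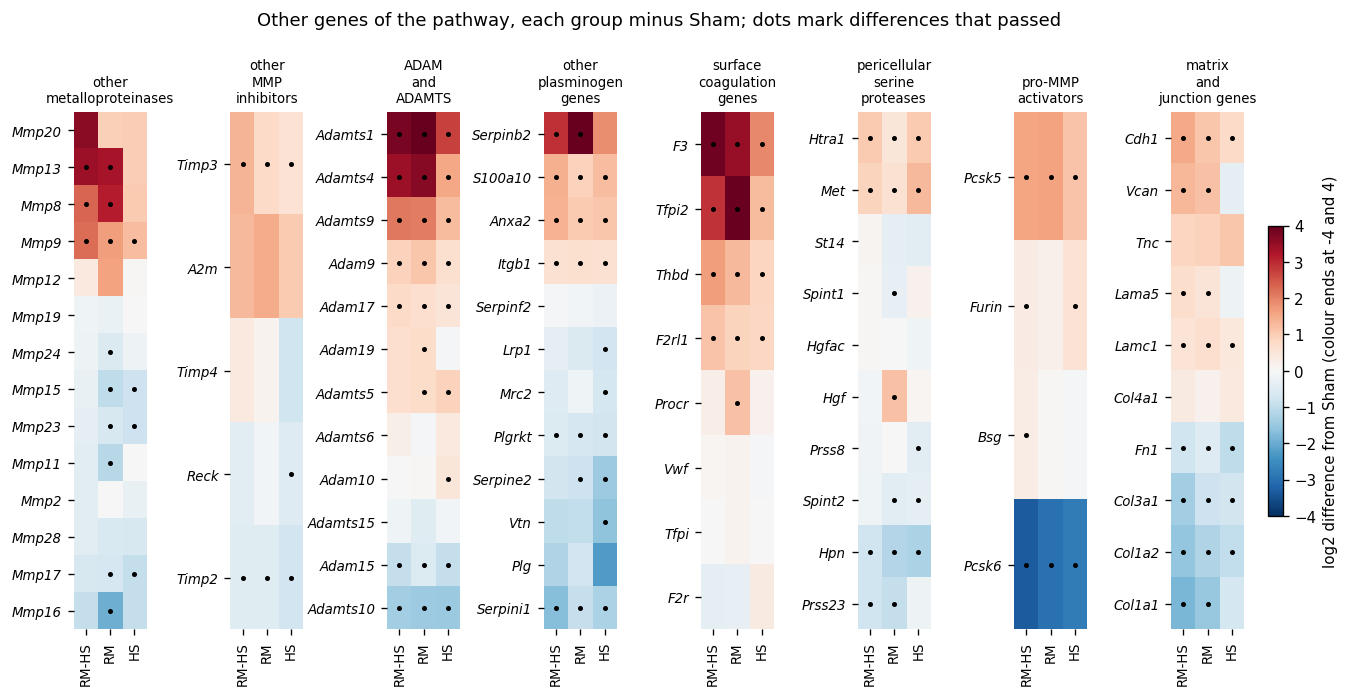
Differences from Sham on the log2(value + 1) scale for listed genes of the proteolysis pathways, as a colour per gene for RM-HS, RM and HS kidneys, with a dot where the gene passed. Adamts1 and F3 are raised and Pcsk6 is lowered, and Timp2 and Timp3 have opposite signs.

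Markers of neutrophils, cells that carry Mmp8, Mmp9 and Plaur, were raised in the same kidneys. The summed level of the 6 of 8 listed markers in the file ranged from 7604 to 12615 in RM-HS, 4844 to 20165 in RM, 1857 to 8119 in HS and 870 to 4679 in Sham kidneys. All 5 tested markers were higher in RM-HS and in RM than in Sham kidneys, and 1 of 5 in HS. Elane, the elastase of immature neutrophils, was at 0 in all RM and HS libraries. Their part in the results was not tested. Beside Mmp10, RM 3 had a sum of 20165 with Mmp10 at 326, RM 2 had 18791 with Mmp10 at 167, RM 5 had a sum of 4844 with Mmp10 at 219, RM 1 had 5015 with Mmp10 at 8.47, and HS 3 had 8119 with Mmp10 at 7.22. Macrophage sums were 4329 to 5923 in RM-HS, 5106 to 6820 in RM, 3444 to 4559 in HS and 3656 to 8806 in Sham kidneys, and fibroblast sums were 6522 to 8891, 6280 to 12480, 6510 to 11825 and 8055 to 11929, so the injured ranges of both overlapped that of Sham. Endothelial sums were 11328 to 13052 in RM-HS and 10450 to 12774 in HS kidneys, below the Sham range of 13393 to 20037. They were 12012 to 18137 in RM kidneys, which overlapped it. Of 8 endothelial markers, 1 was higher and 3 lower in RM-HS, 1 and 2 in RM, and 1 and 5 in HS kidneys. Tubular and glomerular markers also moved with the groups. The part of these and of the endothelial markers in the results was not tested. Collecting duct markers were lower for 6 of 6 genes in each injured group, with sums of 8167 to 19511 in RM-HS, 11445 to 37142 in RM, 13757 to 21395 in HS and 32819 to 87831 in Sham kidneys. Thick ascending limb markers were lower for 4 of 5 genes in RM-HS and 5 of 5 in RM and in HS kidneys, with medians of -1.35, -1.34 and -1.40. Podocyte markers were higher for 2 of 6 genes in RM-HS, 6 of 6 in RM and 5 of 6 in HS kidneys, and proximal tubule markers for 5, 5 and 4 of 7. The Sham libraries were split here. Podocyte sums were 9245 and 9057 in Sham 1 and 6, within the injured range of 8500 to 12212, and 2128 to 5785 in Sham 2 to 5. Proximal tubule sums were 332744 and 348258 in Sham 1 and 6, within the injured range of 278527 to 485027, and 155523 to 258538 in Sham 2 to 5.

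By the root mean square difference of log2(value + 1), centred on each gene's mean over the 20 libraries and searched over 11166 genes, the genes most like Mmp10 were Il6, Rgs16 and Fasn (from 1.40 to 1.51), where the same measure of Mmp10 against its own mean was 2.82. Il6, a cytokine, stood at 465 in RM 1 and at 306 to 2183 in RM 2 to 6. Rgs16 was not low in RM 1, at 482 there against 351 to 505 in RM 2 to 6. Fasn, fatty acid synthase, was lowest in RM 1 among the RM libraries, at 9834 against 11279 to 18425. The measure includes the RM and HS values by which Mmp10 was chosen, so its likeness is a description. Mmp3 was most like Il24 (1.25), Eid3 (1.27) and Nptx2 (1.37), against 2.61 for itself. Il24, a cytokine, shared the low RM 1, with 25.4 there against 90.0 to 205 in RM 2 to 6. It also shared the high HS 3, with 98.3 against 4.80 to 23.8 in the other HS kidneys. Eid3 too was lowest in RM 1, at 84.7 against 124 to 166, and highest in HS 3, at 29.8 against 7.94 to 19.2. Nptx2 was highest in HS 3, at 62.2, but not lowest in RM 1. Plaur was most like Btg2 (0.41), Ifrd1 (0.44) and Ppp1r15a (0.44), against 1.40 for itself. Plat was closest to Rai14 (0.22), Il6st (0.23) and Cpne8 (0.24), and Plau to Arf2 (0.24), Dgat1 (0.26) and Tmem184b (0.26), against 0.70 and 0.44 for themselves. Timp1 was closest to Tubb6 (0.55), Adra1d (0.55) and Ccr1 (0.56), against 1.42 for itself. The genes nearest to Mmp14, at 0.18 to 0.20 against 0.35 for itself, were Lrrfip1, Calm2 and Ampd3, and those nearest to Mmp7, at 0.96 to 0.98 against 1.41, were Gstm1, Lxn and Slc34a2.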

How the data were processed

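RNA of frozen rat kidneys was sequenced from both ends in 20 stranded mRNA libraries, per the labels' protocols. The submitters' processing notes say that reads were examined with FastQC 0.11.2, Picard 1.119 and SAMtools 1.0, aligned with STAR to rn6, counted per gene with featureCounts of Subread 1.5.0 and normalized with DESeq2. Per those notes the signal values the authors deposited are normalized read counts. The sources used here give no settings for alignment or counting. Dividing by the value of 1 read in each library, inferred from the values themselves, gave whole reads for 100% of values within 0.1 read.

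Libraries were grouped by their labels, and replicate numbers follow listing order. The design text counts 19 libraries with 5 RM, whereas the labels give 20 with 6 RM, and all were used. The test covered the 15954 of 34681 rows that reached 10 in 3 or more libraries. It used limma 3.58.1 (R 4.3.3) on log2(value + 1), allowing the variance to follow the mean, with the 4 group means in 1 fit, adjusted by Benjamini-Hochberg over all tested rows in each contrast, with a threshold of 0.05. The 8 genes and the other lists were chosen with earlier results of these data known. All 8 genes are given, and from each list up to 3 genes with the smallest adjusted p in a contrast, of which the text gives those that bear on the 8 genes. Values of such a gene in another contrast, and Mmp8 in its cluster, are given for comparison. Listed genes without a matching row were not analysed here. From the plasminogen list, 1 gene is counted but not reported here by name. The likeness measure took genes with a symbol and a mean of at least 50. Alternatives were pseudocounts of 0.5 and 8, no filter, 2 other scalings, fits of only the groups compared, the name letter as covariate, libraries named R alone, Sham 1 and 6 alone as controls, each library left out, and count tests of the recovered reads by edgeR 4.0.16 and by DESeq2 1.42.0. The procedure was tested on simulated data. Mmp7 in every group, and Mmp3 and Mmp10 outside RM, had fewer reads than the other genes, so counting error weighs more in their values. Its share of the spread between libraries was not computed. Libraries differed widely there too, as in Mmp3 with 79, 116 and 12 reads in RM-HS 1, 2 and 3.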

Additional observations from a re-analysis of the deposited data

Results flagged for a closer look

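RM 1 lay far below the other RM libraries in both stromelysins on the log2 scale. Mmp3 stood at 9.53 in RM 1 against 195 to 341 in the other RM libraries, and Mmp10 stood at 8.47 against 112 to 326. By chance alone about 1 in 20 groups would be singled out at the limit used, and 24 sets of a gene and a group were examined. RM 1 is also the only RM library whose name begins with R and the RM library with the highest collecting duct marker sum, at 37142, so these differences cannot be told apart.

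In the main fit, the effect of RM on Plaur and on Plat differed between kidneys with and without HS, by the interaction term in limma. The departure was -1.61 for Plaur (adjusted p = 0.043) and -0.95 for Plat (adjusted p = 0.003). The Plaur call was lost in 15 of 30 alternative fits, among them no filter and the name letter as covariate. The Plat call held in those named. With the name letter as covariate, 617 of all 15954 rows passed for additivity, against 5054 in the main fit.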

How the results depend on the processing

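The number of the 8 genes past the threshold depended most on which libraries entered. Among libraries named R alone it was 2 in RM against Sham, 0 in RM-HS against RM, 0 in RM-HS against HS and 0 for the departure from additivity. With Sham 1 and 6 alone as controls it was 5 in RM-HS against Sham. In RM-HS against RM it was 0 with only the groups compared and 0 with the name letter as covariate. For the departure from additivity it was 1 without the filter, 1 with upper quartile scaling, 1 with the name letter as covariate and 4 with DESeq2. Leaving out each library in turn gave 5 to 6 in RM against Sham, 4 to 5 in HS against Sham, 6 to 8 in RM-HS against Sham, 0 to 1 in RM-HS against RM, 0 to 4 in RM-HS against HS and 1 to 4 for additivity.

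Some differences changed sign, among them Mmp3 in RM-HS against RM (main value -1.40) and for additivity (-2.72) and the Timp2 call in RM against Sham (-0.47). In RM against Sham, Plau was -0.059 with upper quartile scaling and from -0.0081 to 0.17 with a library left out, Furin was -0.022 against Sham 1 and 6, and Timp2 was 0.051 among libraries named R. In RM-HS against RM, the name letter as covariate gave 0.35 for Mmp3, -0.063 for Mmp14 and 0.020 for Plaur, and libraries named R alone gave 2.51, -0.12 and 0.46, with -0.064 for Plat. With a library left out, Mmp14 ranged from -0.20 to 0.18 and Plaur from -0.57 to 0.00073 in RM-HS against RM, and Mmp7 from -0.40 to 0.28 in RM-HS against HS. The additivity value of Mmp3 was 1.31 among libraries named R. The cause of these changes was not tested. Upper quartile scaling moved the median of all rows to -0.18, -0.15 and -0.16 in RM, HS and RM-HS against Sham, so the Plau value lay above that median. With pseudocount 8, Mmp10 (1.43, limma adjusted p = 0.055) and Mmp7 (0.94, 0.056) did not pass in RM-HS against Sham. With edgeR, Mmp7 did not pass there (2.21, adjusted p = 0.07), and Mmp3 passed for additivity (-3.63, 0.036), as it did with DESeq2 (-3.62, 0.011). Of 3960 values recomputed for 128 results, 3787 kept their direction and side of the threshold or moved little. Many of these recomputations left out a library outside the contrast, where the difference itself cannot change, so this count is no measure of stability. No paired analysis was possible because replicate numbers follow listing order and do not pair the kidneys.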

Other observations

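Serpinb2 (PAI-2), an intracellular inhibitor of urokinase known from activated macrophages and keratinocytes, and Mmp20 (enamelysin), a metalloproteinase of tooth enamel, were picked out after their values were seen. Serpinb2 had 3.27, 3.49 and 21.4 normalized counts in RM-HS kidneys, 0, 46.7, 94.1, 11.1, 16.6 and 15.2 in RM kidneys, 0, 13.6, 5.41, 5.88 and 0 in HS kidneys, and 0 in all 6 Sham kidneys. RM 1, low in Mmp3 and Mmp10, was also the RM kidney at 0. Mmp20, the neighbour of Mmp7, spanned a wide range within every group, and its difference of RM-HS from Sham kidneys did not pass (3.62 ± 1.82, limma adjusted p = 0.12). It had 364, 105 and 459 in RM-HS kidneys, 131, 241, 4.05, 162, 0 and 188 in RM kidneys, 0, 268, 72.2, 29.4 and 218 in HS kidneys, and 0 to 155 in Sham kidneys.

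Hgf, hepatocyte growth factor, whose proform is cut by urokinase and by other serine proteases, was lower in RM-HS than in RM kidneys (log2 difference -1.29 ± 0.28, limma adjusted p = 0.032), with 340 to 510 in RM-HS against 794 to 1745 in RM kidneys. With the name letter as a covariate, or among libraries named R alone, 0 rows passed in this comparison, Hgf included. Against HS kidneys, RM-HS kidneys were higher in F3 (1.97 ± 0.38, limma adjusted p = 0.0016) and in versican, Vcan (1.71 ± 0.33, adjusted p = 0.0016), a proteoglycan cut by Adamts1.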
